A study of Mus musculus with 18 samples.

Results

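The MYC MAX MXD network was followed as 10 genes, namely Myc, Mycn, Max, Mxd1, Mxd3, Mxd4, Mxi1, Mnt, Mga and Mlx, in 18 mouse melanoma tumours. Its members were all probe sets that the platform annotation assigns to one of these symbols and to no other gene, which gave 26 of the 45037 probe sets on the array and 10 of 18193 genes. Tumours grew for 6 weeks from iNRAS-475, a mouse melanoma line with a doxycycline-inducible NRAS oncogene, injected into the skin of nude mice that drank water with 2 mg/ml doxycycline, and were treated once they measured 200 to 500 mm3. In the -NRAS group doxycycline was withdrawn for 4 days, which turns the oncogene off. The MEKi group received the MEK inhibitor AZD6244 at 100 mg/kg for 4 days, and the third group received vehicle. The sample titles give no treatment day for the vehicle tumours, so a difference in timing from the treated tumours cannot be judged. Each group held 6 distinct tumours. The MEKi and vehicle tumours differ from the -NRAS tumours in doxycycline as well as in NRAS, so a response to doxycycline itself and a response to the oncogene cannot be told apart. All tumours came from this 1 line, and nude mice lack mature T cells.

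MYC, MYCN and MYCL are transcription factors that bind DNA as dimers with MAX, mainly at E-boxes of the sequence CACGTG, and raise the transcription of genes for growth, ribosome production and metabolism. The MXD proteins, MXI1 and MNT compete for MAX and for the same sites, and repress through SIN3 and histone deacetylases. MGA pairs with MAX inside a Polycomb complex, and MLX is a MAX-like partner of the glucose-responsive factors MondoA and ChREBP and of some MXD proteins and MNT. In melanoma, NRAS signals through MEK and ERK, and ERK activity is known to sustain MYC both as a transcript and as a protein, of which arrays measure the transcript.

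Array intensities are in arbitrary linear units on a common scale. Differences are given as log2(intensity + 16) with their standard error from limma, which understates the change of dim probe sets, and a probe set passed the test at a Benjamini-Hochberg adjusted p under 0.05 over the 33777 probe sets fitted. The treated groups share the vehicle arrays, and the contrast of -NRAS with MEKi tumours is the test of the difference between the treatments. Of the 26 network probe sets, 25 lay above the filter on mean intensity. The exception was Mga probe set 1433012_at. Counts by gene use the brightest probe set on average (the highest-mean one). A network gene's other probe sets are given beside it, since they can target other transcript forms. Genes of other lists and cell type markers are given by their highest-mean probe set alone, except where an average of all probe sets is named. Levels are not compared between genes.

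Dusp6, which encodes an ERK phosphatase and is itself induced by ERK signalling, was lower in both treated groups, and averaged 1118 ± 307 in -NRAS tumours, 2415 ± 355 in MEKi tumours and 8325 ± 564 in vehicle tumours (SD, n = 6 each). Its difference was -2.92 ± 0.14 (adjusted p = 1.74e-12) for -NRAS minus vehicle and -1.79 ± 0.14 (adjusted p = 4.85e-09) for MEKi minus vehicle. Markers of the other cells in these bulk tumours moved too. All 7 macrophage markers were higher in -NRAS tumours than in vehicle tumours, while 5 of 7 were lower in MEKi tumours. Their summed intensity ran between 37340.0 and 51707 in -NRAS tumours, 7524 and 17181 in MEKi tumours, and 15046 and 24403 in vehicle tumours. Of 6 fibroblast markers, 5 were higher and 1 lower in each treated group, with sums of 127384 to 154707 in -NRAS tumours, 77818 to 84067 in MEKi tumours and 45723 to 56704 in vehicle tumours. All 5 endothelial markers were higher in -NRAS tumours and 1 was higher in MEKi tumours than in vehicle tumours (2 without -NRAS replicate 1, MEKi replicate 2 or vehicle replicate 6), with sums of 1265 to 1768 in -NRAS tumours, 569 to 898 in MEKi tumours and 460.2 to 882 in vehicle tumours. Of 7 melanocytic markers, which check the labelled tumour cells, Tyr and Tyrp1 lay below the filter. Of the 5 fitted, 4 were higher in -NRAS than in vehicle tumours: Pmel by 2.30 ± 0.27, Mlana by 0.94 ± 0.10, Mitf by 0.89 ± 0.07 and Dct by 0.37 ± 0.13. In MEKi tumours 2 were higher (1 without MEKi replicate 6), Pmel by 0.80 ± 0.27 and Sox10, a neural crest transcription factor gene, by 0.50 ± 0.09. Sox10 differed by 0.05 ± 0.09 for -NRAS minus vehicle (adjusted p = 0.668) and by -0.45 ± 0.09 for -NRAS minus MEKi (adjusted p = 0.000598). The melanocytic sums ran from 9602 to 12968 in -NRAS tumours, 12354 to 17641 in MEKi tumours and 8999.9 to 11081 in vehicle tumours. These sums were mostly Sox10, which averaged 9564 in -NRAS tumours, 13051 in MEKi tumours and 9199.9 in vehicle tumours. Their order is thus that of Sox10, while Pmel, Mlana and Mitf had their highest means in -NRAS tumours. Mlana and Dct were dim, with means of 22.9 and 41.9 in vehicle tumours. In bulk tumours, fewer cells of a type and less RNA per cell cannot be told apart. One tumour stood apart: the keratinocyte markers summed to 25252 in -NRAS replicate 2 and to at most 946 in any other tumour. Leaving it out ended the -NRAS minus MEKi calls of Myc and of Mlx probe set 1418437_a_at, let Mxd3 probe set 1422970_at pass in -NRAS minus vehicle, and changed no other call of the 75 tests of network probe sets.

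Of the 10 network genes, 6 passed the test in -NRAS minus vehicle, 3 higher and 3 lower. Over all genes 58.6% passed in that contrast, 31.5% higher and 27.1% lower. In MEKi minus vehicle 8 genes passed, 5 higher and 3 lower, beside 44.3% of all genes (23.7% higher and 20.6% lower). Between -NRAS and MEKi tumours 7 genes passed, 5 higher and 2 lower in -NRAS tumours, beside 45.8% of all genes (23.9% higher and 21.9% lower). By probe set, 13 of 25 passed in -NRAS minus vehicle beside 54.8% of all fitted probe sets, 15 in MEKi minus vehicle beside 40.7%, and 13 in -NRAS minus MEKi beside 40.6%. After NRAS loss the network thus passed about as often as the array as a whole. Groups did not overlap for 9 of 25 in -NRAS minus vehicle beside 34.7% of all fitted probe sets, 10 in MEKi minus vehicle beside 21.6%, and 7 in -NRAS minus MEKi beside 23.4%. The network's median difference per gene was -0.09 for -NRAS minus vehicle, 0.23 for MEKi minus vehicle and 0.09 for -NRAS minus MEKi, beside 0.00, 0.01 and -0.01 over all genes. On the highest-mean probe set, Mxd1, Mxd4 and Mga were higher in both treated groups, Myc was lower in both, Mxd3 moved in opposite directions, and Mnt passed in no contrast. Of Mxd1, Mxd4 and Mga, only Mxd4 passed in both treated groups on all its probe sets.

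**Figure D1:**
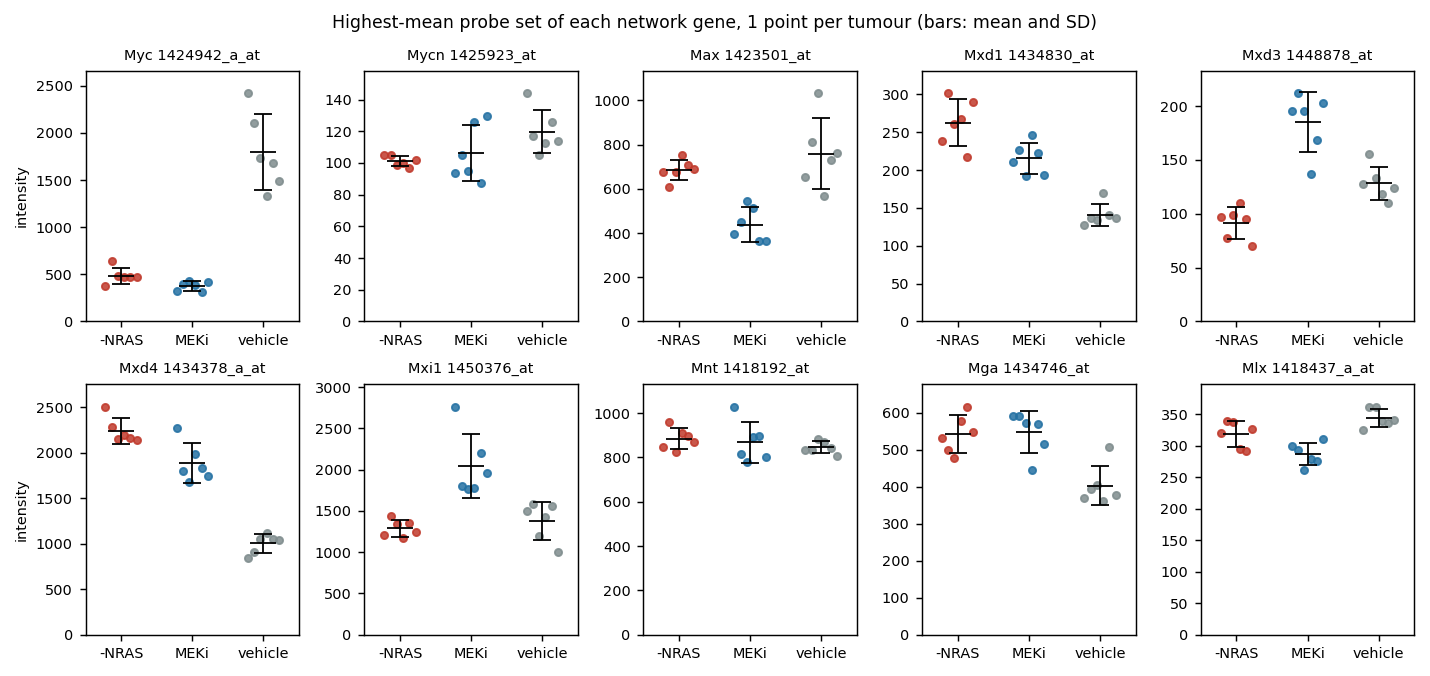
Intensity of the highest-mean probe set of each network gene (vertical axis, linear, from 0), with 1 point per tumour, in -NRAS, MEKi and vehicle tumours, and bars for mean and SD. Myc is lower in both treated groups, Mxd1 and Mxd4 are higher in both, Max and Mlx are lowest in MEKi tumours, Mxi1 is highest there, and Mxd3 is lowest in -NRAS tumours and highest in MEKi tumours.

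Myc, the network's main activator and the gene on which its name rests, fell in both treated groups. Its only probe set, 1424942_a_at, had lowest, median and highest intensities of 376, 473 and 641 in -NRAS tumours, 313, 390.1 and 429.7 in MEKi tumours, and 1336, 1711 and 2419.8 in vehicle tumours. Every treated tumour lay below every vehicle tumour. The means were 486 ± 85.6 in -NRAS tumours, 377 ± 48.2 in MEKi tumours and 1796 ± 401 in vehicle tumours (SD, n = 6 each). Myc fell by 1.84 ± 0.13 in -NRAS tumours relative to vehicle tumours (adjusted p = 7.84e-10), and by 2.19 ± 0.13 in MEKi tumours (adjusted p = 2.97e-10). These sizes exceed those of 98.2% of fitted probe sets in the first contrast and of 99.7% in the second. Myc was slightly higher in -NRAS tumours than in MEKi tumours, by 0.35 ± 0.13 (adjusted p = 0.0434), with overlapping groups. This call lay close to the threshold, and the difference kept its direction, at 0.27 to 0.41, when each tumour was left out in turn. Leaving out any of 11 of the 18 tumours ended the call (the lowest value, 0.27 with adjusted p = 0.110, was without -NRAS replicate 2), as did median centring, at 0.32 (adjusted p = 0.0693), and dropping the filter, at an unchanged 0.35 (adjusted p = 0.0573). The other tumours whose omission ended it were -NRAS replicates 3, 4, 5 and 6, MEKi replicates 1, 2, 4 and 5, and vehicle replicates 3 and 5. The fibroblast marker sums given above were higher in both treated groups than in vehicle tumours. The part of cell composition in the Myc differences was not tested.

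Mycn, the paralogue best known from neural crest tumours such as neuroblastoma, was lower after NRAS loss, and its 3 probe sets differed in how much. Probe set 1417155_at had lowest, median and highest intensities of 32.9, 35.3 and 50.5 in -NRAS tumours, 56.2, 86.7 and 125 in MEKi tumours, and 73.9, 149.8 and 239 in vehicle tumours. The -NRAS tumours lay below all others, and the MEKi and vehicle groups overlapped. This probe set fell by 1.61 ± 0.19 in -NRAS tumours (adjusted p = 7.53e-07) and by 0.69 ± 0.19 in MEKi tumours (adjusted p = 0.00727), relative to vehicle tumours. It was also lower in -NRAS than in MEKi tumours, at -0.92 ± 0.19 (adjusted p = 0.000692). The highest-mean probe set, 1425923_at, was much flatter, at 101 ± 3.34 in -NRAS tumours, 106 ± 17.7 in MEKi tumours and 119.7 ± 13.6 in vehicle tumours (SD, n = 6 each), with a difference of -0.20 ± 0.08 for -NRAS minus vehicle (adjusted p = 0.0416). That call ended when any of 7 tumours was left out (-NRAS replicates 3, 4, 5 and 6 and vehicle replicates 1, 2 and 5). It did not pass in MEKi minus vehicle (adjusted p = 0.136). The third probe set, 1425922_a_at, passed in no contrast, with -0.17 ± 0.07 for -NRAS minus vehicle (adjusted p = 0.0618). The direction of -NRAS minus vehicle was thus shared by all 3 probe sets, and the size depended on which was read. As for Myc, the part of cell composition in these differences was not tested.

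The 250 bases before the Mycn start are shown because they hold a repeated motif for E2F factors, which drive cell cycle genes. In RefSeq, build GRCm38.p6, they lie at chr12:12941837-12942086 on the minus strand. Capitals mark both copies of TTTGGCGC, which begin 183 and 168 bases before the start.
Mycn: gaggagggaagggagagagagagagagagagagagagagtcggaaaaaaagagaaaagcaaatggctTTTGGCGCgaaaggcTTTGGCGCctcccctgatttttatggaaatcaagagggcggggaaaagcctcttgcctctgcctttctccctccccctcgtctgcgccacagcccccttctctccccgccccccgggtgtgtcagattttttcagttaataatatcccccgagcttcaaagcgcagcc
This 8-base motif, sought on both strands, occurs in 0.417% of 32851 mouse promoter windows of the same length. The match is a description of the letters, not a measured site. The motifs were chosen after the values were known.

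Mycl, the third MYC paralogue, is no member but belongs to the list of other MAX and MLX partners, and it moved opposite to Myc. Its lowest, median and highest intensities were 280.2, 319 and 630.5 in -NRAS tumours, 167, 295 and 428 in MEKi tumours, and 43.3, 61.8 and 63.0 in vehicle tumours. Every treated tumour lay above every vehicle tumour. The means were 377 ± 133 in -NRAS tumours, 299 ± 107 in MEKi tumours and 55.9 ± 9.74 in vehicle tumours (SD, n = 6 each). Mycl was higher by 2.41 ± 0.21 in -NRAS tumours (adjusted p = 1.06e-08) and by 2.07 ± 0.21 in MEKi tumours (adjusted p = 2.17e-07) relative to vehicle tumours. The treated groups did not pass against each other, at 0.34 ± 0.21 (adjusted p = 0.219). Fibroblast and skeletal muscle markers were higher in the same tumours. All 4 muscle markers passed in both treated groups (in MEKi minus vehicle 2 of them without MEKi replicate 3 or 4 or vehicle replicate 4 or 5), and their sum ran between 20542 and 29775 in -NRAS tumours, 11721 and 27862 in MEKi tumours, and 1587 and 10012 in vehicle tumours. The part of these cells in the Mycl difference was not tested.

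**Figure D2:**
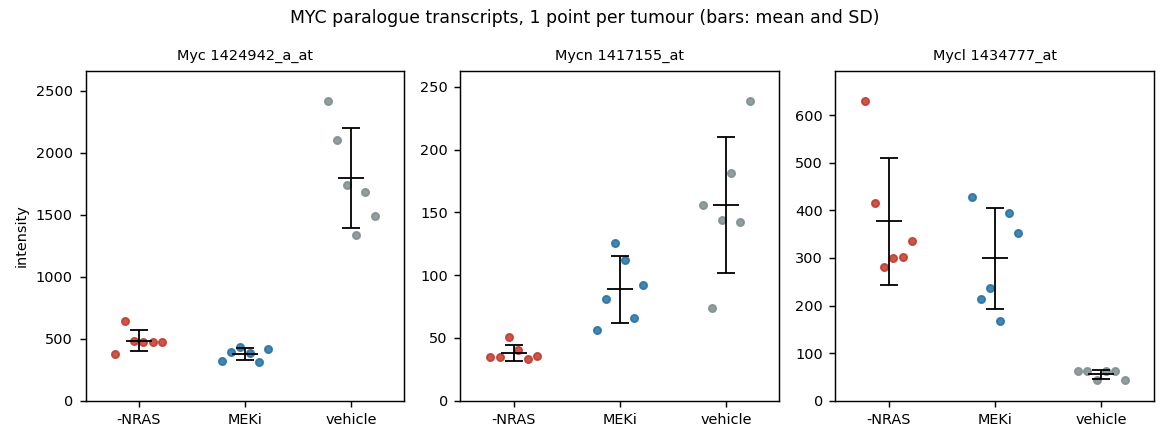
Intensity (vertical axis, linear, from 0) of Myc, of Mycn probe set 1417155_at and of Mycl, with 1 point per tumour in -NRAS, MEKi and vehicle tumours and bars for mean and SD. Myc and this Mycn probe set are lower in the treated groups, with this probe set lowest in -NRAS tumours, and Mycl is higher in both treated groups than in any vehicle tumour. The Mycn probe set shown is the one with the lowest adjusted p for -NRAS minus vehicle. The highest-mean Mycn probe set, 1425923_at, is not shown and was much flatter, at -0.20 for -NRAS minus vehicle.

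Max, the obligate partner of MYC proteins and of most of their antagonists, was lower with MEK inhibition and not detectably changed by NRAS loss. Probe set 1423501_at had lowest, median and highest intensities of 610.1, 683 and 751 in -NRAS tumours, 362, 424 and 543 in MEKi tumours, and 566, 748 and 1031 in vehicle tumours. All MEKi tumours lay below all tumours of both other groups. The means were 685 ± 46.1 in -NRAS tumours, 438 ± 77.5 in MEKi tumours and 759.7 ± 159 in vehicle tumours (SD, n = 6 each). Max fell by 0.76 ± 0.12 in MEKi relative to vehicle tumours (adjusted p = 4.15e-05). The difference was -0.12 ± 0.12 for -NRAS minus vehicle (adjusted p = 0.402), with a 95% interval of -0.38 to 0.13. The treatments themselves differed by 0.64 ± 0.12 for -NRAS minus MEKi (adjusted p = 0.000239). Of 7 macrophage markers, 5 were also lower in MEKi than in vehicle tumours. The others, Csf1r at 0.03 ± 0.14 and Mpeg1 at -0.14 ± 0.12, did not pass. The macrophage sums given above overlapped between these groups, and the part of macrophages in the Max difference was not tested.

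Among the MAX-binding repressors, Mxd4 showed the clearest response and rose in both treated groups on all 4 of its probe sets. MXD4 is a MAX partner linked to differentiating cells. Probe set 1434378_a_at had lowest, median and highest intensities of 2138, 2178 and 2506 in -NRAS tumours, 1678, 1817 and 2274 in MEKi tumours, and 848, 1049 and 1123 in vehicle tumours. Every treated tumour lay above every vehicle tumour, and the treated groups overlapped each other. The means were 2239 ± 139.9 in -NRAS tumours, 1885 ± 216 in MEKi tumours and 1006 ± 104 in vehicle tumours (SD, n = 6 each). Mxd4 rose by 1.15 ± 0.08 in -NRAS tumours (adjusted p = 3.41e-10) and by 0.90 ± 0.08 in MEKi tumours (adjusted p = 2.98e-08), and was higher in -NRAS than in MEKi tumours by 0.25 ± 0.08 (adjusted p = 0.0137). On the other 3 probe sets the -NRAS minus vehicle difference was 0.92 ± 0.09 for 1434379_at, 0.61 ± 0.08 for 1422574_at and 0.41 ± 0.06 for 1422575_at. The MEKi minus vehicle difference was 0.76 ± 0.09 for 1434379_at, 0.27 ± 0.08 for 1422574_at and 0.38 ± 0.06 for 1422575_at, and all of these passed. The fibroblast and muscle marker sums given above were higher in the same tumours, and their part in the Mxd4 difference was not tested.

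The promoter window of Mxd4 is shown because it holds an E-box, the site that its own protein and MYC share. It lies at chr5:34187711-34187960 on the minus strand (RefSeq, GRCm38.p6), and capitals mark CACGTG, 219 to 214 bases before the start.
Mxd4: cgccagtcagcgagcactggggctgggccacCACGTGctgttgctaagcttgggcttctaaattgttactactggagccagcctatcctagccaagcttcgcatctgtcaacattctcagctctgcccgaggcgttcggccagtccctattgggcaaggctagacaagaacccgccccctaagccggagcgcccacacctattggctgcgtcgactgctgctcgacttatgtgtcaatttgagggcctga
Of the network genes, 9 had a window in the table, with 11 promoters in all, and 3 of these held an E-box, compared with 6.02% of the 32851 windows. The others were those of Mnt and Mlx, shown as 30 bases around the capitalised E-box, at chr11:74830789-74830818 and chr11:101087238-101087267, both on the plus strand. The annotated Mnt gene starts at 74830806, inside these bases, and the annotated Mlx gene at 101086707, before them. Both stretches thus overlap another annotated transcript form.
Mnt: ccccacccaagcCACGTGtgcgcgcgcggt
Mlx: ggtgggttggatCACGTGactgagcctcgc
A further search for GTAAACA, a motif of FOXO factors present in 3.17% of windows, matched 1 Mxi1 promoter 231 to 225 bases before the start, and TTTCCCGC, present in 0.895%, matched none of the 11. The 3 genes with an E-box did not behave alike: Mxd4 was higher in both treated groups, Mlx was lower in MEKi tumours, and Mnt passed in no contrast.

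Mxd1, which encodes the founding MXD repressor and is known to accompany terminal differentiation, was also higher in both treated groups on its brightest probe set. Probe set 1434830_at had lowest, median and highest intensities of 218, 265 and 301 in -NRAS tumours, 192, 217 and 246 in MEKi tumours, and 128, 137 and 169 in vehicle tumours. Neither treated group overlapped the vehicle tumours. Mxd1 rose by 0.83 ± 0.08 in -NRAS tumours (adjusted p = 4.68e-08) and by 0.56 ± 0.08 in MEKi tumours (adjusted p = 1.44e-05), and -NRAS exceeded MEKi tumours by 0.26 ± 0.08 (adjusted p = 0.012). The 2 dimmer probe sets passed in no contrast. Probe set 1455104_at gave 0.23 ± 0.14 for -NRAS minus vehicle and 0.14 ± 0.14 for MEKi minus vehicle, and 1422002_at gave -0.10 ± 0.07 for -NRAS minus vehicle and -0.05 ± 0.07 for MEKi minus vehicle. Averaging all 3 probe sets ended the -NRAS minus MEKi call, at 0.10 (adjusted p = 0.258). The fibroblast and muscle sums moved with Mxd1 too, and their part was not tested.

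Mxd3, an MXD member that is expressed in dividing cells, was lower after NRAS loss and higher with MEK inhibition. Probe set 1448878_at had lowest, median and highest intensities of 70.0, 96.0 and 109.6 in -NRAS tumours, 137, 196 and 212 in MEKi tumours, and 110.3, 126 and 156 in vehicle tumours. The -NRAS tumours lay below all others, and the MEKi group overlapped the vehicle group. Mxd3 fell by 0.43 ± 0.10 in -NRAS tumours (adjusted p = 0.00149) and rose by 0.47 ± 0.10 in MEKi tumours (adjusted p = 0.0011), relative to vehicle tumours. The treatments differed by -0.91 ± 0.10 for -NRAS minus MEKi (adjusted p = 8.32e-07), and the -NRAS and MEKi groups did not overlap on any of the 3 probe sets. Probe set 1438847_at gave -0.36 ± 0.09 (adjusted p = 0.0017) for -NRAS minus vehicle and 0.31 ± 0.09 (adjusted p = 0.00775) for MEKi minus vehicle. Probe set 1422970_at gave -0.16 ± 0.07 (adjusted p = 0.0609) for -NRAS minus vehicle and 0.29 ± 0.07 (adjusted p = 0.00218) for MEKi minus vehicle. Cell cycle transcripts had the same order of groups. All 7 fitted proliferation markers were lower in -NRAS than in vehicle tumours and 6 of 7 were higher in MEKi tumours, with summed intensities of 6168 to 8055 in -NRAS tumours, 15552 to 22353 in MEKi tumours and 12365 to 15734 in vehicle tumours. Their part in the Mxd3 difference was not tested.

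**Figure D3:**
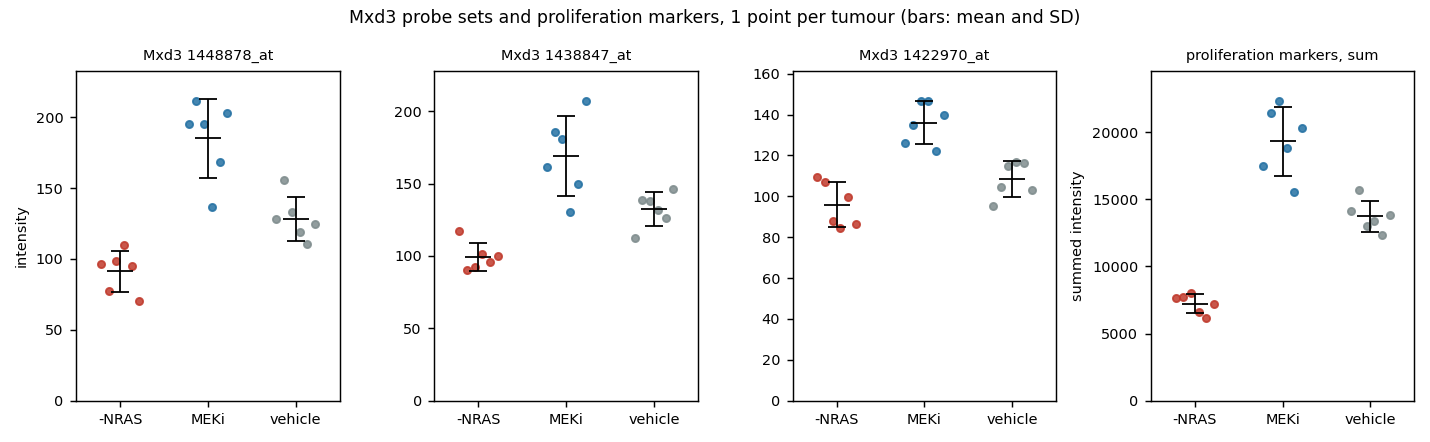
Intensity of the 3 Mxd3 probe sets and summed intensity of 7 proliferation markers (vertical axes, linear, from 0), with 1 point per tumour in -NRAS, MEKi and vehicle tumours and bars for mean and SD. On each panel the -NRAS tumours have the lowest mean and the MEKi tumours the highest.

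Mxi1, which encodes a MAX-binding repressor also known as MXD2, was higher in MEKi tumours than in both other groups. Probe set 1450376_at had lowest, median and highest intensities of 1167, 1289 and 1433 in -NRAS tumours, 1768, 1882 and 2763 in MEKi tumours, and 999, 1464 and 1578 in vehicle tumours. The MEKi tumours lay above all tumours of both other groups. Mxi1 rose by 0.56 ± 0.12 in MEKi relative to vehicle tumours (adjusted p = 0.000631), and the difference between treatments was -0.64 ± 0.12 for -NRAS minus MEKi (adjusted p = 0.00017). The melanocytic marker Sox10 was likewise higher in MEKi tumours than in both other groups, with the values given above. No other fitted melanocytic marker had this pattern. Between the treatments Pmel, Mlana and Mitf went the other way, and Dct did not pass (adjusted p = 0.707). The part of Sox10-expressing cells in the Mxi1 difference was not tested. For -NRAS minus vehicle the Mxi1 difference was -0.08 ± 0.12 (adjusted p = 0.594, 95% interval -0.32 to 0.17). The dimmer probe set 1425732_a_at passed in no contrast, with -0.00 ± 0.13 for MEKi minus vehicle (adjusted p = 0.992).

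Mnt, which encodes a broadly expressed repressor that pairs with MAX and MLX, passed the test in no contrast. Probe set 1418192_at averaged 885 ± 48.6 in -NRAS tumours, 868 ± 92.9 in MEKi tumours and 846 ± 27.0 in vehicle tumours (SD, n = 6 each). The 95% intervals of its differences were -0.07 to 0.19 for -NRAS minus vehicle, -0.10 to 0.16 for MEKi minus vehicle and -0.10 to 0.16 for -NRAS minus MEKi. Probe set 1418193_at passed in no contrast either, at -0.08 ± 0.06 for -NRAS minus vehicle and -0.03 ± 0.06 for MEKi minus vehicle.

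Mga, whose product carries a T-box as well as the MAX-binding domain, was modestly higher in both treated groups. Probe set 1434746_at had lowest, median and highest intensities of 478, 540.4 and 616 in -NRAS tumours, 446, 572 and 590.1 in MEKi tumours, and 362, 386 and 506 in vehicle tumours. Both treated groups overlapped the vehicle group through 1 high vehicle tumour, replicate 5, at 506. Mga rose by 0.42 ± 0.09 in -NRAS tumours (adjusted p = 0.000342) and by 0.43 ± 0.09 in MEKi tumours (adjusted p = 0.000435), with -0.01 ± 0.09 between the treatments (adjusted p = 0.925). Probe set 1431232_a_at passed in -NRAS minus vehicle at 0.41 ± 0.10 (adjusted p = 0.00195), but not in MEKi minus vehicle at 0.11 ± 0.10 (adjusted p = 0.444). Its -NRAS minus MEKi difference of 0.30 ± 0.10 (adjusted p = 0.0216) lost the call without -NRAS replicate 1 or MEKi replicate 6. The other 2 fitted probe sets passed in no contrast, and averaging all Mga probe sets ended the MEKi minus vehicle call, at 0.12 (adjusted p = 0.0671).

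Mlx, the MAX-like partner of MondoA and ChREBP, was lower in MEKi tumours on both probe sets. Probe set 1418437_a_at had lowest, median and highest intensities of 292, 323 and 339.7 in -NRAS tumours, 261, 286 and 311 in MEKi tumours, and 325, 340.3 and 362 in vehicle tumours. All MEKi tumours lay below all vehicle tumours. Mlx fell by 0.25 ± 0.05 in MEKi relative to vehicle tumours (adjusted p = 0.000803), and probe set 1425930_a_at fell by 0.54 ± 0.08 (adjusted p = 3.83e-05). For -NRAS minus vehicle, 1418437_a_at gave -0.11 ± 0.05 (adjusted p = 0.0963), which passed under median centring at -0.14 (adjusted p = 0.0337). Probe set 1425930_a_at gave -0.23 ± 0.08 (adjusted p = 0.0291), a call that ended without any of 5 tumours (-NRAS replicate 5 and vehicle replicates 1, 2, 5 and 6). For -NRAS minus MEKi, 1425930_a_at gave 0.31 ± 0.08 (adjusted p = 0.00526) and 1418437_a_at gave 0.14 ± 0.05 (adjusted p = 0.0374). The call of 1418437_a_at ended under median centring, at 0.11 (adjusted p = 0.101), and without any of 7 tumours (-NRAS replicates 1, 2, 3 and 6 and MEKi replicates 3, 4 and 5). As noted for Max, 5 of 7 macrophage markers were lower in MEKi than in vehicle tumours, and their part in the Mlx difference was not tested.

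**Figure D4:**
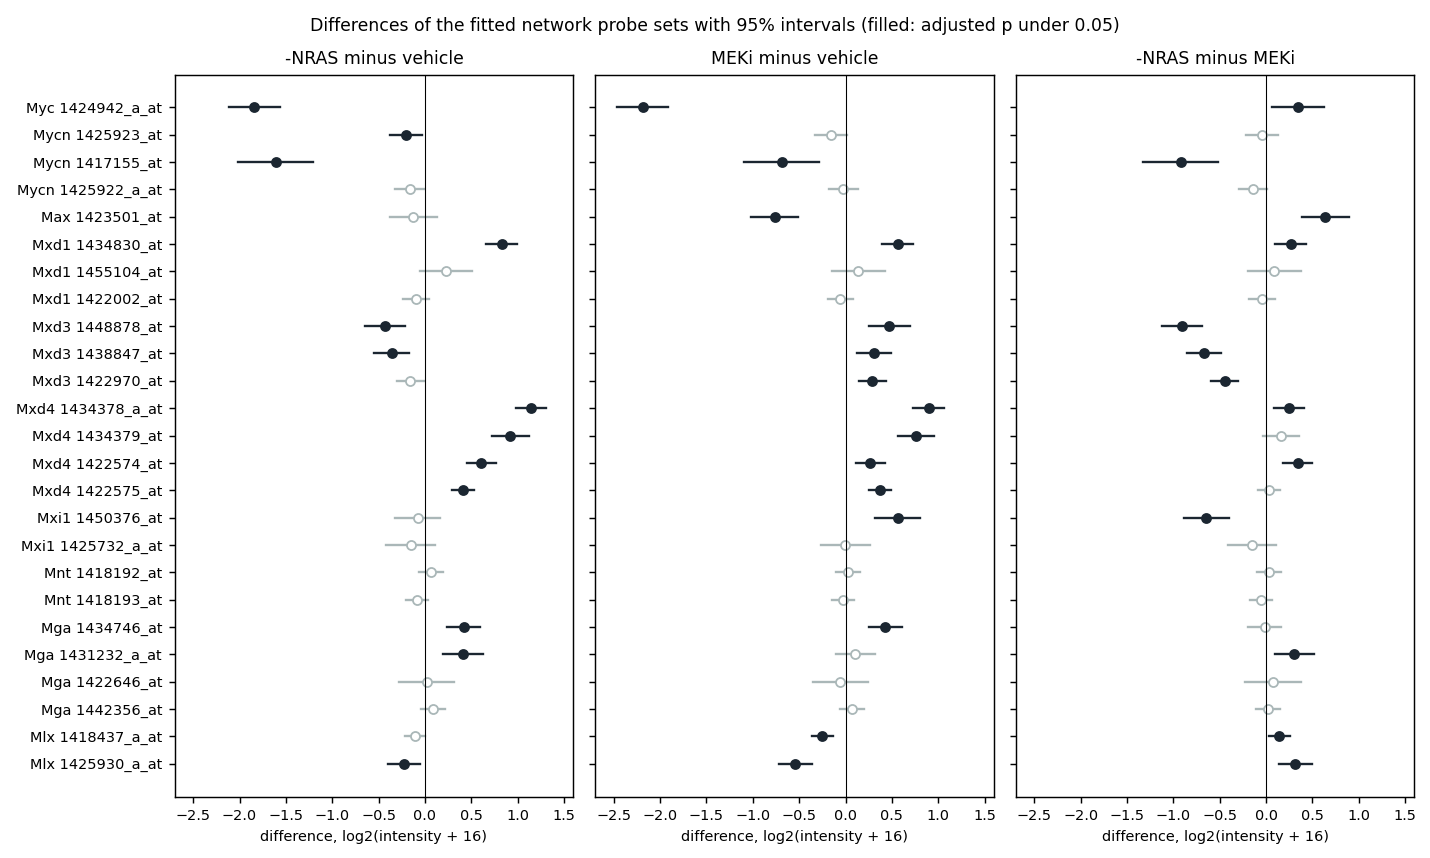
Difference in log2(intensity + 16) (horizontal axis) of the 25 fitted network probe sets with 95% intervals, for -NRAS minus vehicle, MEKi minus vehicle and -NRAS minus MEKi, filled where adjusted p was under 0.05. Myc is furthest left in both contrasts with vehicle, the 4 Mxd4 probe sets lie right of 0 in both, and the 3 Mxd3 probe sets lie left of 0 in the first and right of it in the second.

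The partners outside the members were few. Of the 3 other MAX and MLX partners, 2 passed higher in each treated group. Besides Mycl this was Mlxip, which encodes MondoA, higher by 0.53 ± 0.09 in -NRAS tumours (adjusted p = 4.05e-05) and by 0.27 ± 0.09 in MEKi tumours (adjusted p = 0.0216). The MEKi minus vehicle value lost the call without MEKi replicate 1 or vehicle replicate 1 or 2. The -NRAS minus MEKi difference of Mlxip was 0.27 ± 0.09 (adjusted p = 0.0207) and ended without -NRAS replicate 4 or 5. Mlxipl, which encodes ChREBP, passed in neither, at 0.16 ± 0.09 for -NRAS minus vehicle and 0.19 ± 0.09 for MEKi minus vehicle.

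Txnip and Arrdc4, arrestin-family genes that MondoA and MLX are known to induce, were both higher after NRAS loss. Txnip had lowest, median and highest intensities of 3403, 4203 and 5396 in -NRAS tumours, 1455, 1728 and 2492 in MEKi tumours, and 791, 1028 and 1696 in vehicle tumours. The -NRAS tumours lay above all others. Txnip rose by 1.97 ± 0.17 in -NRAS tumours (adjusted p = 7.79e-09) and by 0.81 ± 0.17 in MEKi tumours (adjusted p = 0.000638), and the treatments differed by 1.16 ± 0.17 (adjusted p = 1.39e-05). Arrdc4 rose by 0.91 ± 0.16 in -NRAS tumours (adjusted p = 5.32e-05), while its MEKi minus vehicle difference was -0.21 ± 0.16 (adjusted p = 0.31). Macrophage, endothelial and fibroblast marker sums were also highest in -NRAS tumours, with the values given above, and their part in these differences was not tested.

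Most of the listed genes that MYC is known to induce were lower in both treated groups. Of 28 listed, 24 were lower and 1 higher in -NRAS than in vehicle tumours, with a median of -0.54, and 20 were lower in MEKi tumours, with a median of -0.39, beside medians of 0.00 and 0.01 over all genes. Over all genes, 27.1% were lower in -NRAS tumours and 20.6% in MEKi tumours. The list was chosen with earlier results of these data known, so its counts and medians are a description and not a test. The iron importer gene Tfrc fell by 1.90 ± 0.09 in -NRAS tumours (adjusted p = 1.50e-12) and by 1.11 ± 0.09 in MEKi tumours (adjusted p = 8.09e-09). Shmt2, for mitochondrial serine metabolism, fell by 1.29 ± 0.09 and the nucleolar gene Nop58 by 1.07 ± 0.09 in -NRAS tumours. Pus7, for a pseudouridine synthase, fell by 0.99 ± 0.07 and Srm, for spermidine synthase, by 0.92 ± 0.11 in MEKi tumours. The 1 higher gene in -NRAS tumours, singled out after its value was seen, was Ccnd2, which encodes cyclin D2, at 0.83 ± 0.14. It differed between treatments by 1.11 ± 0.14 for -NRAS minus MEKi (adjusted p = 4.21e-06). Between the treatments 14 of 28 were lower and 2 higher in -NRAS tumours, with a median of -0.22. Over all genes 21.9% were lower and 23.9% higher in that contrast, with a median of -0.01. Among the lower ones was the lactate dehydrogenase gene Ldha at -0.88 ± 0.10 (adjusted p = 4.20e-07). Proliferation markers were lower in -NRAS and higher in MEKi than in vehicle tumours, with the sums given above, and their part in these differences was not tested.

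The 6 genes that MYC is known to repress included called members in both directions. In -NRAS tumours 2 were higher and 3 lower than in vehicle tumours (median -0.25), and in MEKi tumours 3 were higher and 2 lower (median 0.16). Over all genes 31.5% were higher and 27.1% lower in -NRAS tumours, and 23.7% higher and 20.6% lower in MEKi tumours. The count of higher genes in -NRAS tumours was thus close to the share over all genes. Ndrg2, a stress and differentiation gene, rose by 1.62 ± 0.12 in -NRAS and 1.52 ± 0.12 in MEKi tumours, and its relative Ndrg1 rose by 0.99 ± 0.11 in -NRAS and 1.09 ± 0.11 in MEKi tumours. The cyclin-dependent kinase inhibitor genes went the other way: Cdkn2b fell by 1.48 ± 0.08 in -NRAS tumours and by 1.05 ± 0.08 in MEKi tumours, and Cdkn1a fell by 1.05 ± 0.07 in -NRAS tumours and by 0.44 ± 0.07 in MEKi tumours. Between the treatments 4 of 6 were lower in -NRAS tumours, beside 21.9% of all genes. They included Cdkn1a at -0.60 ± 0.07 and the growth arrest gene Gadd45a at -0.42 ± 0.11.

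Of 12 fitted genes acting on MYC protein stability, 3 were higher and 4 lower in -NRAS than in vehicle tumours, near the 31.5% and 27.1% of all genes. In MEKi tumours 5 were higher (3 without vehicle replicate 1) and 1 lower, beside 23.7% and 20.6% of all genes. For -NRAS minus MEKi 2 were higher and 6 lower, beside 23.9% and 21.9% of all genes. Cip2a, an inhibitor of the phosphatase that destabilises MYC, fell by 1.48 ± 0.10 in -NRAS tumours (adjusted p = 3.69e-10) and rose by 0.44 ± 0.10 in MEKi tumours (adjusted p = 0.00149). Aurka, a mitotic kinase known to stabilise MYCN, fell by 1.33 ± 0.13 and Skp2, a ubiquitin ligase subunit, by 0.47 ± 0.09 in -NRAS tumours. In MEKi tumours the kinase gene Gsk3b rose by 0.38 ± 0.07 and the deubiquitinase gene Usp36 fell by 0.29 ± 0.06. The 2 higher genes for -NRAS minus MEKi, named after their values were seen, were Usp36 at 0.56 ± 0.06 and the phosphatase subunit gene Ppp2r5a at 0.29 ± 0.05. For -NRAS minus MEKi, Cip2a differed by -1.93 ± 0.10, Aurka by -1.61 ± 0.13 and Skp2 by -0.61 ± 0.09. Proliferation marker sums were also lowest in -NRAS tumours, and their part was not tested.

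Among coregulators, called shares can be read beside the 31.5% of all genes higher and 27.1% lower in -NRAS minus vehicle, and the 23.7% higher and 20.6% lower in MEKi minus vehicle. In -NRAS minus MEKi, 23.9% of all genes were higher and 21.9% lower. Of 12 fitted MYC coactivators, 3 were higher and 5 lower in -NRAS tumours, and 3 were higher and 3 lower in MEKi tumours, the last close to the share over all genes. The helicase genes Ruvbl2 and Ruvbl1 fell by 0.48 ± 0.07 and 0.43 ± 0.07 and the acetyltransferase gene Kat2a by 0.39 ± 0.07 in -NRAS tumours. In MEKi tumours Ep400 rose by 0.41 ± 0.06 and Trrap by 0.33 ± 0.07, both large subunits of acetyltransferase complexes, while Ruvbl1 fell by 0.37 ± 0.07. For -NRAS minus MEKi, 1 was higher, the elongation factor gene Ccnt1 at 0.34 ± 0.05, and 3 were lower, among them Ruvbl2 at -0.37 ± 0.07 and Kat2a at -0.34 ± 0.07. That lower count was close to the share over all genes. Of 8 fitted SIN3 corepressor genes, 2 were higher and 3 lower in -NRAS tumours and 3 higher and 1 lower in MEKi tumours. Sin3b, a scaffold that MXD proteins bind, fell by 0.79 ± 0.07 in -NRAS tumours (adjusted p = 1.14e-08) and by 0.71 ± 0.07 in MEKi tumours (adjusted p = 1.33e-07). Sap30 rose by 0.39 ± 0.08 in -NRAS tumours and by 0.47 ± 0.08 in MEKi tumours, Hdac2 fell by 0.46 ± 0.05 in -NRAS tumours, and Rbbp4 rose by 0.39 ± 0.05 in MEKi tumours. Between the treatments 1 was higher, Suds3 at 0.23 ± 0.06, and 5 were lower, among them Hdac2 at -0.40 ± 0.05 and Rbbp4 at -0.36 ± 0.05. Averaging all Suds3 probe sets ended its call, at 0.10 (adjusted p = 0.237). Of 8 fitted MGA partners in its Polycomb complex, 1 was higher and 4 lower in -NRAS tumours, and 1 higher and 2 lower in MEKi tumours. The ubiquitin ligase gene Rnf2 rose by 0.64 ± 0.07 in -NRAS and 0.64 ± 0.07 in MEKi tumours, and Yaf2 fell by 0.54 ± 0.05 in -NRAS and 0.23 ± 0.05 in MEKi tumours. E2f6 fell by 0.44 ± 0.07 in -NRAS tumours, and its MEKi minus vehicle value of -0.17 ± 0.07 (adjusted p = 0.0484) lost the call when any of 10 tumours was left out. For -NRAS minus MEKi, 3 were lower: Yaf2 at -0.31 ± 0.05, Tfdp1 at -0.28 ± 0.06 and E2f6 at -0.27 ± 0.07.

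**Figure D5:**
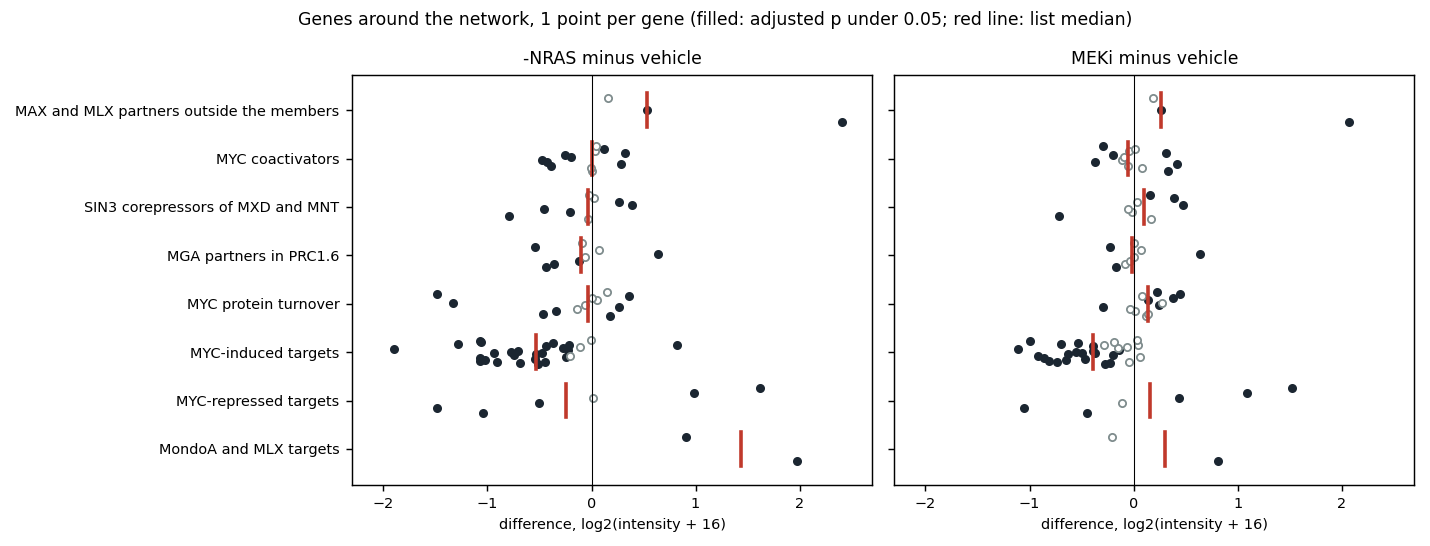
Difference in log2(intensity + 16) (horizontal axis) of genes around the network, with 1 point per gene, for -NRAS minus vehicle and MEKi minus vehicle, filled where adjusted p was under 0.05, with a red line at each list's median. The MYC-induced genes lie mostly left of 0, with medians of -0.54 and -0.39, and Mycl is furthest right among the other MAX and MLX partners.

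The genes whose pattern was most like that of Myc were found by the root mean square difference in log2 value over the 18 tumours, after each gene's own vehicle mean was taken off. They were Slc20a1, a phosphate transporter gene, at 0.189, Plaur, for the urokinase receptor, at 0.203, Klf5, for a transcription factor, at 0.212, the cytokine gene Il11 at 0.278 and Noct at 0.304. Their -NRAS minus vehicle differences ran from -2.07 for Noct to -1.82 for Il11, and their MEKi minus vehicle differences from -2.28 for Klf5 to -1.82 for Noct. The genes most like Mxd4 were Chd3, for a chromatin remodeller, at 0.0863, Tmem191c at 0.119, the transporter gene Abcc5 at 0.133, Dkk3, for a secreted protein, at 0.150 and Laptm4b, for a lysosomal protein, at 0.163. Chd3 was higher by 1.14 in -NRAS and by 0.89 in MEKi tumours relative to vehicle tumours. These genes were picked for closeness to Myc or Mxd4 in the same tumours. That their differences lie near those of Myc or Mxd4 follows from this choice.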

How the data were processed

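RNA from 18 tumours, 6 per group, was measured on one-colour Affymetrix mouse arrays, from pieces of about 50 mg and 10 ug of RNA per the labels' protocols. The deposited table holds summarised intensity values, taken as linear since none was negative, the range was 7.37 to 44479.6 and the medians of the arrays were 72.3 to 78.5. Per the submitters' processing notes MAS5 and RMA were used, and versions and which made the table are not given in the sources used here. Were the scale another, fold changes would change. Probe sets took their gene from the platform annotation. Those with a mean above the 25th percentile (23.8) were fitted on log2(intensity + 16) with limma 3.58.1 in R 4.3.3 over all 3 groups (15 residual degrees of freedom), and the fit was tested on simulated data. P-values were Benjamini-Hochberg adjusted over 33777 probe sets per contrast. No label gives a batch or date, and the number of arrays limits the precision. No arrays held identical values.

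Members, lists and tests were chosen with earlier results of these data known. Named were all members, the up to 3 largest called changes per list and contrast, all of lists of 3 or fewer, the 5 genes most like Myc and Mxd4, and Dusp6. Promoter sequences are RefSeq's. Alternatives changed the pseudocount, filter, scaling, prior, weights, probe set summary, threshold and tumours used. Figures were drawn with matplotlib 3.10.9.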

Additional observations from a re-analysis of the deposited data

Results flagged for a closer look

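In 6 of 78 groups of 6 tumours, 1 tumour lay far from the others of its group, and chance gives about 1 in 20. They were Mycn probe set 1425922_a_at in MEKi replicate 2 at 41.6, Mxd1 probe set 1434830_at in vehicle replicate 4 at 169, Mxd4 probe set 1434379_at in -NRAS replicate 1 at 651 and in MEKi replicate 1 at 625, Mga probe set 1434746_at in vehicle replicate 5 at 506, and Mga probe set 1422646_at in -NRAS replicate 2 at 124.

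For 13 of 25 probe sets the effects of the treatments differed in the -NRAS minus MEKi test, beside 40.6% of all fitted probe sets. Lower in -NRAS tumours were Mxd3, at -0.91 ± 0.10 on probe set 1448878_at, -0.67 ± 0.09 on 1438847_at and -0.45 ± 0.07 on 1422970_at, Mycn at -0.92 ± 0.19 on 1417155_at and Mxi1 at -0.64 ± 0.12 on 1450376_at. Higher in -NRAS tumours were Max at 0.64 ± 0.12, Myc at 0.35 ± 0.13, Mxd4 at 0.34 ± 0.08 on 1422574_at and 0.25 ± 0.08 on 1434378_a_at, Mlx at 0.31 ± 0.08 on 1425930_a_at and 0.14 ± 0.05 on 1418437_a_at, Mga at 0.30 ± 0.10 on 1431232_a_at, and Mxd1 at 0.26 ± 0.08 on 1434830_at. The calls of Myc (without any of 11 tumours), of Mlx 1418437_a_at (any of 7) and of Mga 1431232_a_at (either of 2) ended when that tumour was left out.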

How the results depend on the processing

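Of 2370 alternative values for the 75 tests of network probe sets, 2241 kept direction and call, 76 lost the call, 20 gained it and 33 changed sign, the last all without a call before or after. Leaving out 1 tumour at a time gave 51.9% to 55.6%, 37.7% to 40.7% and 37.3% to 40.8% of all probe sets called in -NRAS minus vehicle, MEKi minus vehicle and -NRAS minus MEKi, and 5 to 6, 8 to 9 and 5 to 7 network genes, with 3 to 5 of them higher in -NRAS minus MEKi (3 without -NRAS replicate 2, 3 or 6 or MEKi replicate 4 or 5). Median centring and quantile normalization each also left 3 higher there. Asking for 1.5-fold as well left 18.8%, 9.88% and 11.8% of all probe sets, 3 network genes in each contrast and 6, 5 and 5 network probe sets, with 1 gene lower in -NRAS minus vehicle, 1 higher in MEKi minus vehicle and 1 higher in -NRAS minus MEKi, and with 13, 9 and 3 of the MYC-induced genes lower, against 24, 20 and 14 without that demand. At an adjusted p under 0.01, -NRAS minus MEKi kept 3 genes, 1 of them higher, and 8 probe sets. With the mean of all probe sets per gene, Mycn passed in MEKi minus vehicle at -0.29 (adjusted p = 0.0134) and in -NRAS minus MEKi at -0.37 (adjusted p = 0.00226). The cause was not tested.

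Sign changes among differences without a call were small. They were 0.0019 for Mxi1 1425732_a_at (MEKi minus vehicle, pseudocount 1), -0.016 and -0.043 for Mga 1422646_at (-NRAS minus vehicle, median centring and quantile normalization), -0.0099 and -0.00025 for Mga 1442356_at (-NRAS minus MEKi, median centring and array weights), 0.0060 for Mycn 1425922_a_at (MEKi minus vehicle, array weights) and, averaging all probe sets, -0.010 and -0.011 for Mnt (-NRAS minus vehicle and -NRAS minus MEKi) and 0.059 for Mga (-NRAS minus MEKi). Leaving out 1 tumour gave for -NRAS minus vehicle -0.076 to 0.126 for Mga 1422646_at. For MEKi minus vehicle it gave -0.018 to 0.062 for Mnt 1418192_at, -0.050 to 0.0037 for Mnt 1418193_at, -0.150 to 0.052 for Mga 1422646_at, -0.098 to 0.086 for Mxi1 1425732_a_at and -0.060 to 0.020 for Mycn 1425922_a_at. For -NRAS minus MEKi it gave -0.023 to 0.167 for Mga 1422646_at, -0.091 to 0.0076 for Mycn 1425923_at, -0.069 to 0.022 for Mga 1434746_at, -0.0058 to 0.050 for Mga 1442356_at and -0.036 to 0.178 for Mxd1 1455104_at.

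Replicate numbers recur in each group, but no label says that a number stands for a shared mouse, day or batch. Same-numbered tumours were therefore not taken as pairs. Their deviations correlated between -0.12 and 0.34, with 5 of 18 above 0.1. Differently numbered tumours were not compared in this way, so these values cannot show whether pairing is absent. With the replicate number as a block, 54.1%, 40.4% and 40.0% of probe sets were called, and among network probe sets Mycn 1425923_at lost its -NRAS minus vehicle call, at -0.20 (adjusted p = 0.0555). Dim probe sets, such as Mycn 1425922_a_at, lie close to the filter, and the scale limits what they can show.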
